A study of Mus musculus with 18 samples.

Results

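The genes described here are 10 genes of iron storage, import and export in cultured mouse macrophages, followed across heme and lipopolysaccharide (LPS) treatment with and without the transcription factor Nrf2. They were chosen by name: the ferritin chains Fth1 and Ftl1, the iron exporter Slc40a1 (ferroportin), the transcription factor Spic, the transferrin receptor Tfrc, the metal transporters Slc11a1 and Slc11a2, the ferritin receptor Ncoa4, the iron-responsive RNA-binding protein Ireb2 and the ferrireductase Steap3. The choice was made with earlier results of these data known, so counts of called genes among them are a description. All 10 genes were measured, by 23 array features in all, among 22485 genes with a symbol on the array. Each value is the log2 ratio of a sample to an untreated macrophage reference, averaged over the features of a gene, so it is a level relative to that reference and not an amount of RNA.

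Macrophages that clear red cells take up heme, break it down with heme oxygenase and are left with free iron. The iron is stored in ferritin, a shell of heavy and light chains, or leaves the cell through ferroportin, the known cellular iron exporter. Iron enters through the transferrin receptor, is reduced inside endosomes and crosses the endosomal or phagosomal membrane through transporters of the Slc11a family. The iron regulatory proteins bind hairpins in the messages of ferritin, ferroportin and the transferrin receptor; they block translation of the first and stabilise the last when iron is scarce. Spic is known as the factor needed for red pulp macrophages of the spleen, and heme is known to induce it by removing the repressor Bach1. Nrf2, encoded by Nfe2l2, is activated by oxidative and electrophilic stress, and ferritin and ferroportin genes are among its known targets.

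The cells were bone marrow derived macrophages from mice of 8 to 10 weeks, grown in M-CSF at 10 ng/ml for 7 days, and each of 18 arrays with 2 dyes held 1 sample labelled with Cy5 against the untreated reference labelled with Cy3. Nrf2+/+ cells, called wild type here, had albumin for 4 h (3 arrays), LPS for 4 h (3 arrays), or albumin with 200 µM heme for 4 h followed by LPS for 4 h (3 arrays). Nrf2-/- cells, called knockout here, had LPS (4 arrays) or heme-albumin and then LPS (5 arrays), with no group free of LPS. The LPS dose was 10 ng/ml per the treatment protocol. That protocol sets albumin or heme-albumin before LPS, but LPS alone is what the sample labels list for the LPS groups, so heme cannot be told apart from any difference in albumin or in hours of culture between these groups. The same limit holds for LPS against albumin. Heme with LPS against albumin also differs in the listed hours of treatment. Which genotype the reference RNA had is likewise not stated. The design text calls the replicates of each condition independent biological replicates. Their number, 3 to 5 in a group, limits the precision of every value below.

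Several properties of the arrays bear on these genes. Nfe2l2 itself had the value 0 on each of the 9 knockout arrays, but also on 2 of the 3 wild-type albumin arrays. Its feature cannot be placed against the deleted part of the gene, so it is a weak check of the genotype. With the functional gene, its ratio (log2) was -0.07 ± 0.12 (SD, n = 3) with albumin, -0.29 ± 0.40 with LPS and 0.64 ± 0.46 with heme and LPS. Between 17.9% and 48.8% of features were listed at exactly 0 on an array. The 4 LPS-treated arrays lettered a had 44.3% to 48.8%, the highest shares of all arrays. Results that gain or lose a call without these 4 are given with and without them, and other moves are given only in part. The mean log2 ratio of 7 macrophage markers lay between 0.17 and 0.30 on wild-type LPS arrays and between -1.25 and -0.85 on wild-type heme and LPS arrays, where Fcgr1 (-5.38 against LPS) and Mertk (-3.08) fell. The other 5 were not called, at -0.34 for Adgre1, -0.40 for Cd68, -0.16 for Itgam, -0.02 for Lyz2 and 0.55 for Csf1r. A ratio to a macrophage reference does not show whether a marker is present, and in a whole culture fewer cells of a type cannot be told apart from less RNA per cell.

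The stretches that end at the base before an annotated start are shown for 5 of these genes because these genes changed with heme in both genotypes and because each holds a motif known from genes of this pathway. The sequences are from RefSeq's promoter table (mouse build GRCm38.p6), which matched 8 of the 10 genes; Slc40a1 and Slc11a2 were not matched. Capitals mark the CCAAT box in Tfrc and in the ferritin genes, where it reads as ATTGG from the other strand, AGGAAGT, a core bound by Ets factors such as Spic's family, in Spic (ACTTCCT on the other strand), and the loose antioxidant element TGANNNNGC in Slc11a1. They lie at chr19:9982556-9982645 (plus strand, Fth1), chr7:45459887-45459976 (minus strand, Ftl1), chr10:88683024-88683113 (minus strand, Spic), chr1:74375113-74375202 (plus strand, Slc11a1) and chr16:32608766-32608895 (plus strand, Tfrc). Fth1 has a further annotated start upstream of the one used, and Tfrc a further one downstream.
Fth1: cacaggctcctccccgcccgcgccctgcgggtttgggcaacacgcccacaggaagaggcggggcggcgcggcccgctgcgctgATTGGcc
Ftl1: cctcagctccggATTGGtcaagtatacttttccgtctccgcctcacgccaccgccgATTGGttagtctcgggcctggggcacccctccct
Spic: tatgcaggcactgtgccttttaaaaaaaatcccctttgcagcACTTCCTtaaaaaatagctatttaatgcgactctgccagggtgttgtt
Slc11a1: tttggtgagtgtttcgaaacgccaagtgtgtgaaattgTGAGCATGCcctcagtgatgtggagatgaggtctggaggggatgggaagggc
Tfrc: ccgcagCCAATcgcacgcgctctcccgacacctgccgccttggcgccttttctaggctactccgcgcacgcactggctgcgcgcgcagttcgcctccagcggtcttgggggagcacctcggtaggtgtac

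These motifs are short and common. On both strands of the 300-base windows (250 bases before and 50 after the start) CCAAT was found in 37.4% of all promoters in that table, and among the iron genes in Fth1, Ftl1, Tfrc and Steap3. TGANNNNGC was found in 41.3%, and here in Slc11a1, Ncoa4 and Steap3. The stricter TGACNNNGC, every match of which also matches the loose form, was found in 12.4%, and here in Ncoa4. ACGTG, the core of the hypoxia element, was found in 19.6%, and here in Tfrc and Ncoa4, and AGGAAGT in 9.35%, and here in Spic, Tfrc and Steap3. A match describes the letters of the window and no more.

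Heme before LPS moved most of the iron genes in wild-type cells. Against LPS alone, Fth1, Ftl1, Slc40a1, Spic and Slc11a1 rose, Tfrc and Steap3 fell, and Slc11a2, Ncoa4 and Ireb2 did not pass the test, which is limma over all 18 arrays with Benjamini-Hochberg adjustment over all genes and a call at an adjusted p under 0.05. That is 7 of 10 called, beside 14.7% of all 22485 genes (8.34% higher and 6.35% lower). The arrays of the groups did not overlap for these 7, as for 24.2% of all genes. The heme comparison in wild type came with a median difference of 0.38 over the 10 genes and 0 over all genes. In the knockout the same heme comparison called 6 of 10, 5 higher and Tfrc lower, beside 6.77% of all genes (4.1% higher and 2.67% lower), with a median of 0.40 over the 10. Those 6 had arrays that did not overlap, as had 7.64% of all genes. LPS against albumin in wild type called 5 of 10, beside 28.6% of all genes (12.3% higher and 16.3% lower): Fth1 and Ireb2 rose, and Ftl1, Slc40a1 and Steap3 fell. The median over the 10 was -0.07. In that comparison the arrays did not overlap for 8 of 10, beside 47.2% of all genes. Set against albumin, heme with LPS in wild type called 8 of 10, 6 higher and 2 lower, beside 27.3% of all genes (12.9% higher and 14.4% lower). The median was 0.79, and the arrays did not overlap for 10 of 10, beside 43.7% of all genes. These comparisons share groups: the wild-type LPS arrays serve in the first and the third, and the albumin arrays in the third and the fourth, and the wild-type heme arrays in the first and the fourth.

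**Figure D1:**
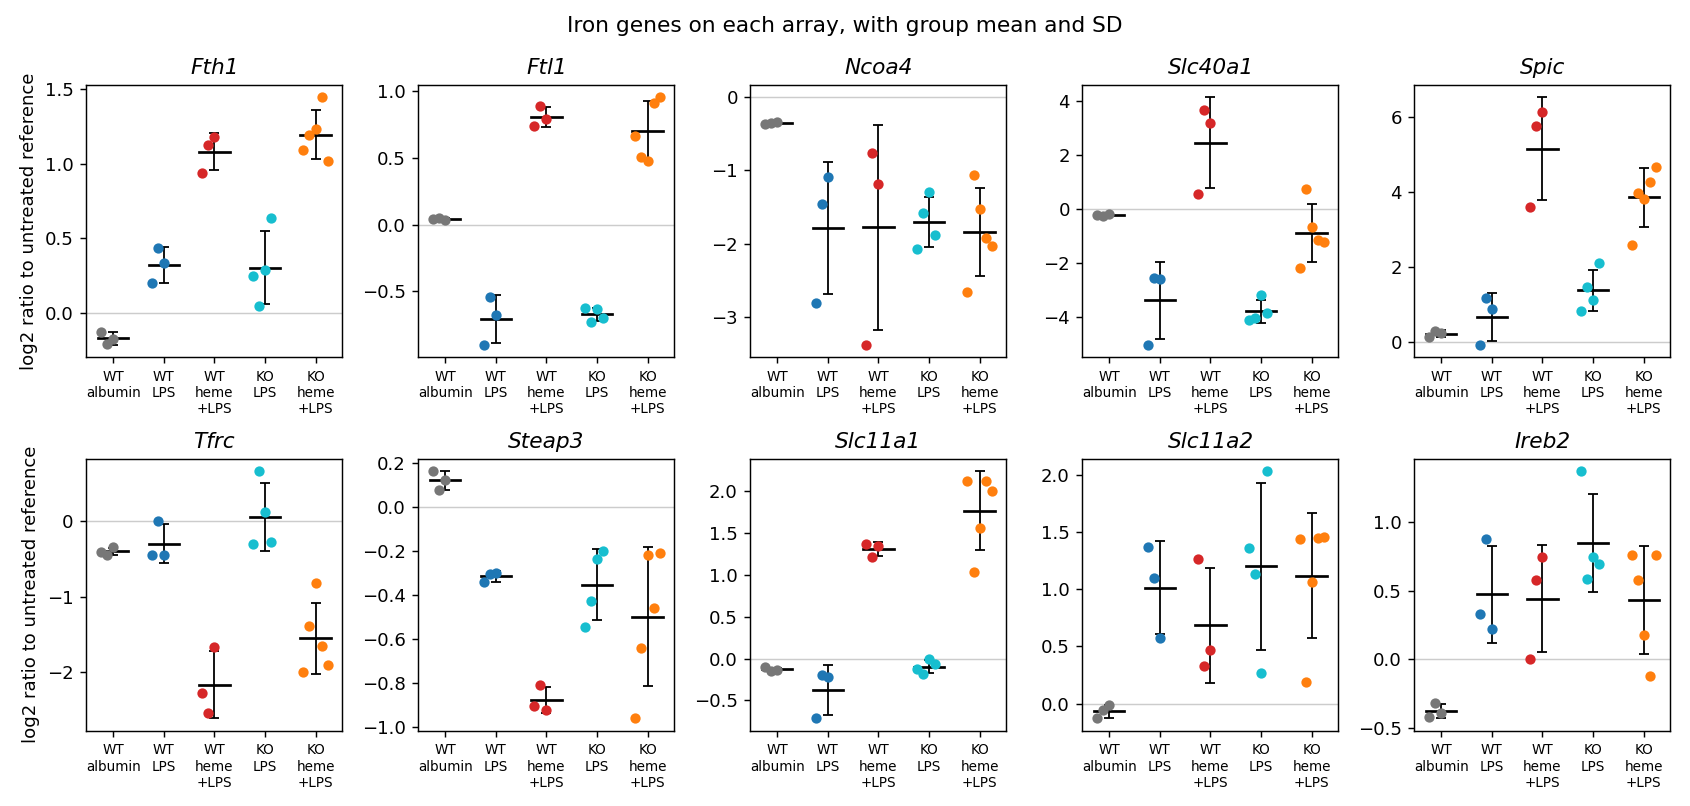
The log2 ratio to the untreated reference (vertical axis) of each of the 10 iron genes on every array, by group (WT, Nrf2+/+; KO, Nrf2-/-), with each point 1 array and the line the group mean. Slc40a1 lay between -5.01 and -2.55 on wild-type LPS arrays and between 0.56 and 3.68 on wild-type heme and LPS arrays, while Ncoa4 lay below albumin in each LPS-treated group.

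Ferritin heavy and light chains both rose under heme, but LPS alone moved them in opposite directions. Fth1, the chain with the ferroxidase centre, had log2 ratios of -0.13, -0.21 and -0.18 on the albumin arrays of wild type, 0.20, 0.44 and 0.33 with LPS, and 0.94, 1.13 and 1.18 with heme and LPS. In the knockout it read 0.25, 0.05, 0.28 and 0.63 with LPS and 1.09, 1.20, 1.23, 1.45 and 1.02 with heme and LPS. The albumin arrays were lowest, the LPS arrays of both genotypes overlapped, and every heme array lay above every LPS array. LPS raised Fth1 by 0.49 ± 0.13 (SE; adjusted p = 0.0119), a call lost without wild-type LPS array b (adjusted p = 0.0516). Heme raised it by a further 0.76 ± 0.13 in wild type (1.69-fold, adjusted p = 0.00122) and by 0.89 ± 0.11 in the knockout (1.86-fold, adjusted p = 0.000251).

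Ftl1, the light chain, which promotes mineral formation inside the shell, read 0.04, 0.05 and 0.04 with albumin, -0.90, -0.54 and -0.68 with LPS, and 0.74, 0.89 and 0.79 with heme and LPS in wild type. The knockout arrays read -0.62, -0.73, -0.63 and -0.70 with LPS and 0.66, 0.51, 0.48, 0.92 and 0.95 with heme and LPS. LPS arrays of both genotypes lay below albumin and heme arrays of both lay above it, with no overlap. Ftl1 fell by 0.75 on the log2 scale with LPS (SE 0.12, adjusted p = 0.000312). It rose by 1.51 ± 0.12 with heme in wild type (2.85-fold, adjusted p = 2.28e-06) and by 1.38 ± 0.10 in the knockout (2.60-fold, adjusted p = 4.3e-06). Against albumin, heme and LPS together left Fth1 higher by 1.25 ± 0.13 and Ftl1 by 0.76 ± 0.12. The genes whose ratio ran closest to Ftl1 over the 18 arrays were Gm5278 (Pearson r = 0.99), Ftl2-ps (0.98) and Ftl1-ps2 (0.98), annotated pseudogenes of ferritin light chain, so whether the single Ftl1 feature reads Ftl1 alone is uncertain.

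Ncoa4, which delivers ferritin to lysosomes for breakdown, was low on every LPS-treated array. It read -0.36, -0.35 and -0.34 with albumin in wild type, -2.81, -1.46 and -1.09 with LPS, and -3.38, -0.77 and -1.19 with heme and LPS. In the knockout it read -2.08, -1.58, -1.30 and -1.88 with LPS and -2.66, -1.06, -1.52, -1.92 and -2.03 with heme and LPS. All 15 LPS-treated arrays lay below all 3 albumin arrays, and the arrays lettered a were the lowest of their groups. LPS against albumin gave -1.44 ± 0.59 (adjusted p = 0.0870), which did not pass. It was -1.44 and passed without wild-type heme array a, which enters only the shared spread (adjusted p = 0.0202), and without the 4 LPS-treated arrays lettered a it was -0.92 and passed (adjusted p = 0.0311). Over all arrays left out singly it ran from -1.78 to -0.92, with the adjusted p from 0.0202 to 0.321, the last without wild-type LPS array a. The heme difference was 0.0077 ± 0.59 in wild type and -0.13 ± 0.49 in the knockout, neither past the threshold.

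Slc40a1 had the widest range of the 10 genes. This exporter, which hepcidin removes from the cell surface, read -0.21, -0.24 and -0.16 with albumin in wild type, -5.01, -2.55 and -2.57 with LPS, and 0.56, 3.68 and 3.19 with heme and LPS. The knockout read -4.11, -4.02, -3.16 and -3.83 with LPS and -2.16, 0.76, -0.64, -1.14 and -1.21 with heme and LPS. LPS arrays of both genotypes were the lowest. With heme, all 3 wild-type arrays lay above albumin, whereas 4 of the 5 knockout arrays lay below 0.

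Slc40a1 fell by 3.17 on the log2 scale with LPS (SE 0.84, 9.0-fold lower, adjusted p = 0.0101), and without wild-type LPS array a it fell by 2.35 with the call lost (adjusted p = 0.0553). Without all 4 LPS-treated arrays of that letter it likewise fell by 2.35, with the call kept (adjusted p = 0.00561). The SD of Slc40a1 in wild type was 0.04 with albumin, 1.41 with LPS and 1.68 with heme and LPS. Heme raised Slc40a1 by 5.85 ± 0.84 in wild type, 57.8-fold with a 95% interval of 16.7 to 200.0 (adjusted p = 0.000229). A spread shared with the tight albumin arrays can make this interval too narrow. Leaving out 1 array at a time gave 5.04 to 6.81, all called, but a fit on those groups alone gave an adjusted p of 0.0626. In the knockout heme raised it by 2.90 ± 0.69, 7.46-fold with an interval of 2.69 to 20.7 (adjusted p = 0.0196); the call was lost without knockout LPS array a (adjusted p = 0.0637), b (0.0510) or d (0.0527). Set against albumin, wild type with heme and LPS was 2.68 ± 0.84 higher (adjusted p = 0.0269). The call was lost without any 1 of the 3 albumin arrays (adjusted p of 0.0634 to 0.0663), where the difference stayed at 2.67 to 2.70. It was also lost without wild-type heme array b (0.116) or c (0.0946), and in a fit on those groups alone (0.0977). The difference was 3.64 and called without wild-type heme array a (adjusted p = 0.00368) and without all 4 arrays of that letter (adjusted p = 0.000460).

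Spic, the Ets-family factor tied to iron-recycling macrophages, reached the highest ratios of the 10 genes. It read 0.13, 0.29 and 0.25 with albumin, -0.07, 1.16 and 0.89 with LPS, and 3.59, 5.76 and 6.12 with heme and LPS in wild type. The knockout read 0.83, 1.46, 1.11 and 2.11 with LPS and 2.59, 3.96, 3.80, 4.26 and 4.65 with heme and LPS. Every heme array lay above every LPS array, and albumin and wild-type LPS arrays overlapped. LPS against albumin gave 0.44 ± 0.61 (adjusted p = 0.679). Heme raised Spic by 4.49 ± 0.61 in wild type, 22.5-fold with a 95% interval of 9.07 to 56.0 (adjusted p = 0.000159). Leaving out 1 array at a time gave 4.01 to 5.28 in wild type, the highest without heme array a, all called. Heme raised it by 2.47 ± 0.50 in the knockout, 5.56-fold with an interval of 2.63 to 11.7 (adjusted p = 0.00807).

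**Figure D2:**
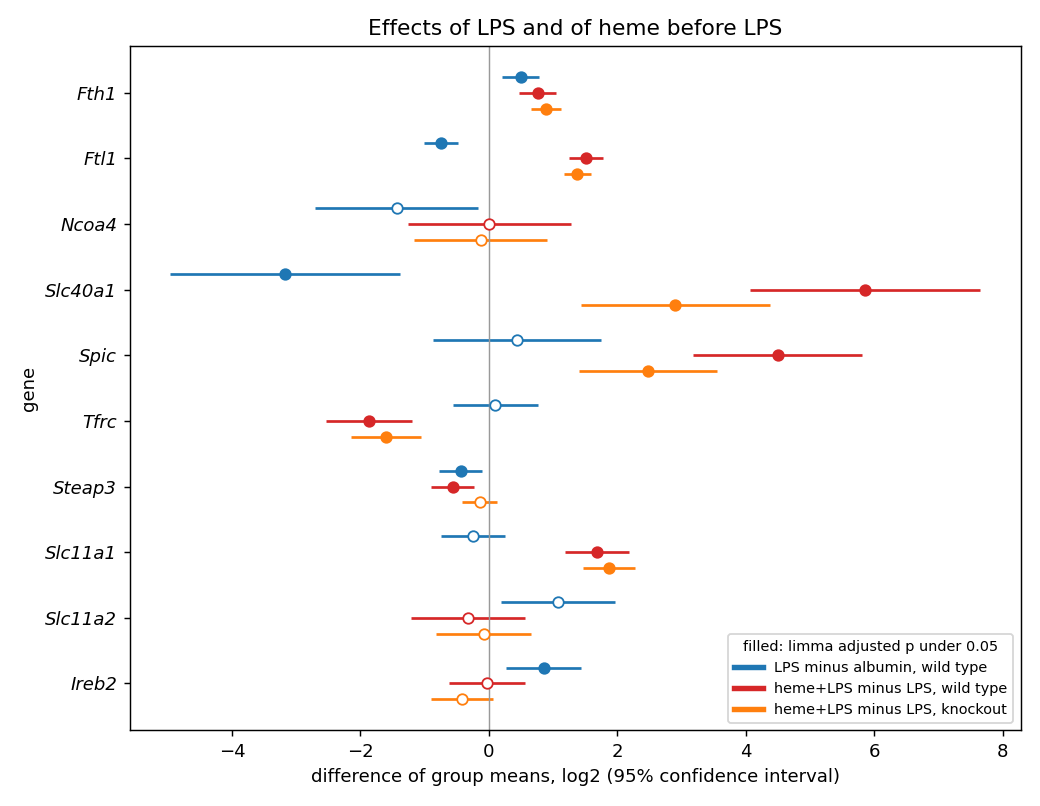
Difference of group means on the log2 scale (horizontal axis) with its 95% confidence interval for each of the 10 genes under LPS against albumin in wild type and heme with LPS against LPS in wild type and knockout; filled points passed limma's adjusted p under 0.05. Slc40a1 and Spic had the largest heme differences in wild type, 5.85 and 4.49, and Tfrc lay below 0 under heme in both genotypes.

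Tfrc, the receptor that takes up transferrin-bound iron, fell under heme in both genotypes. It read -0.41, -0.45 and -0.35 with albumin, -0.45, -0.01 and -0.45 with LPS, and -2.27, -2.54 and -1.67 with heme and LPS in wild type. The knockout read -0.31, 0.66, 0.12 and -0.28 with LPS and -1.997, -1.38, -0.82, -1.66 and -1.90 with heme and LPS. Heme arrays lay below all other arrays in both genotypes. Tfrc fell by 1.86 on the log2 scale in wild type (SE 0.31, 3.63-fold lower, adjusted p = 0.000841) and by 1.60 in the knockout (SE 0.26, 3.03-fold lower, adjusted p = 0.00173). LPS against albumin gave 0.10 ± 0.31 (adjusted p = 0.897).

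The 12 Tfrc features did not all run together. On the albumin arrays 10 of them lay within 0.19 of each other, whereas feature 23596 lay between -2.60 and -2.47 there, and feature 4188 was listed at exactly 0 on 11 of the 18 arrays. The mean of the 10 was -0.14 ± 0.02 (SD, n = 3) with albumin, -0.23 ± 0.21 with LPS and -2.30 ± 0.38 with heme and LPS in wild type, and 0.09 ± 0.42 (n = 4) and -1.67 ± 0.51 (n = 5) in the knockout. With these 10, a set chosen after their values were seen, the heme difference was -2.07 in wild type (adjusted p = 0.000310) and -1.76 in the knockout (adjusted p = 0.000738), and LPS against albumin turned to -0.10 (adjusted p = 0.907). On wild-type heme array a the 10 spread over 3.05 log2 units, and on knockout heme array a over 2.33.

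**Figure D3:**
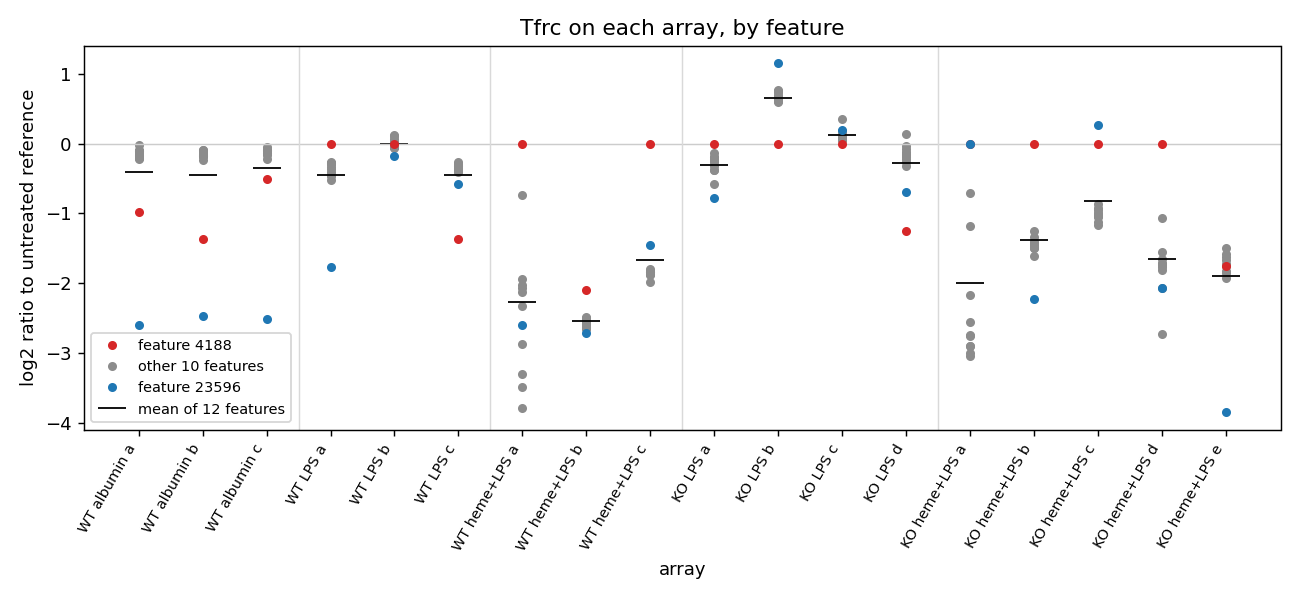
The log2 ratio (vertical axis) of each of the 12 features of Tfrc on each array (horizontal axis), with the mean of the 12 as a line. The 10 grey features lie close together on most arrays, while feature 23596 lies near -2.5 on the albumin arrays and feature 4188 is at exactly 0 on 11 of the 18 arrays.

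Tfrc is also a gene of growing cells and of red cell precursors, and markers of both were measured. The mean log2 ratio of 7 dividing-cell markers lay between -0.97 and -0.84 on wild-type LPS arrays, between -2.25 and -1.40 on wild-type heme arrays, between -1.24 and -0.46 on knockout LPS arrays and between -1.88 and -0.65 on knockout heme arrays. In the heme comparisons 0 of these 7 were called in either genotype, and 5 of 7 were called lower with heme and LPS than with albumin. The mean of 7 erythroid markers lay between -0.34 and 0.12 on wild-type LPS arrays and between -0.59 and 0.40 on wild-type heme arrays, with 0 of 7 called. The part of dividing cells in the Tfrc result was not tested.

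Steap3, which reduces iron in the endosome after transferrin uptake, moved less. It read 0.16, 0.08 and 0.12 with albumin, -0.34, -0.31 and -0.30 with LPS, and -0.90, -0.81 and -0.92 with heme and LPS in wild type, and each step had no overlap. In the knockout it read -0.55, -0.43, -0.24 and -0.20 with LPS and -0.96, -0.64, -0.22, -0.46 and -0.21 with heme and LPS, which overlapped. In wild type it fell by 0.44 on the log2 scale with LPS (SE 0.16, adjusted p = 0.0498) and by 0.56 with heme (SE 0.16, 1.48-fold lower, adjusted p = 0.0242), while the knockout heme difference was -0.14 ± 0.13 (adjusted p = 0.687). Both wild-type calls were easily lost: the first under 18 of 29 alternatives, where the adjusted p reached 0.319 (feature 15450 alone), and the second under 8 of 29, where it reached 0.120 (feature 30602 alone). Leaving out any 1 of the 3 wild-type LPS arrays ended both, with adjusted p of 0.0944 to 0.112 and 0.0579 to 0.0677; any albumin array ended the first (0.0844 to 0.116), and wild-type heme array a (0.0654) or c (0.0733) the second. Heme and LPS against albumin, with a difference of -0.997 (SE 0.16, adjusted p = 0.000274), held under all 29.

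The 2 Slc11a transporters differed in which treatment moved them. Slc11a1 (Nramp1), which moves metal out of the phagosome and is known for resistance to intracellular microbes, read -0.10, -0.15 and -0.14 with albumin, -0.71, -0.19 and -0.22 with LPS, and 1.37, 1.21 and 1.35 with heme and LPS in wild type. The knockout read -0.13, -0.19, -0.01 and -0.06 with LPS and 2.13, 1.03, 1.56, 2.13 and 2.00 with heme and LPS. All 8 heme arrays lay above 1 and all others below 0. Slc11a1 rose by 1.68 ± 0.23 with heme in wild type (3.22-fold, adjusted p = 0.000167) and by 1.87 ± 0.19 in the knockout (3.64-fold, adjusted p = 6.02e-05), and LPS against albumin was -0.24 ± 0.23 (adjusted p = 0.498). Slc11a1 is also a gene of neutrophils: the mean of 8 neutrophil markers lay between 0.16 and 0.87 on wild-type LPS arrays and between 0.60 and 1.35 on wild-type heme arrays. Of these 8, Elane (1.08) and S100a8 (2.05) rose with heme in wild type and 6 were not called, with Ltf (-0.27), Ngp (-0.15) and Prtn3 (-0.18) below 0. In the knockout Elane rose (0.98, adjusted p = 0.00560) and S100a8 did not pass (0.49, adjusted p = 0.656). The part of such cells in the Slc11a1 result was not tested.

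Slc11a2 (DMT1), the transporter of the endosome after transferrin uptake, read -0.13, -0.06 and -0.01 with albumin, 1.37, 1.09 and 0.57 with LPS, and 1.26, 0.33 and 0.47 with heme and LPS in wild type. The knockout read 1.36, 1.14, 0.27 and 2.03 with LPS and 1.44, 0.19, 1.06, 1.44 and 1.45 with heme and LPS. All 15 LPS-treated arrays lay above the albumin arrays, and LPS and heme arrays overlapped in both genotypes. LPS against albumin was 1.08 ± 0.42 (adjusted p = 0.0682), which did not pass, but did (adjusted p of 0.0376 to 0.0452) when knockout LPS array c or d or knockout heme array b was left out of the shared spread. It passed under 9 of 29 alternatives in all, among them quantile normalization (0.0334), a filter on zeros (0.0463), the groups compared alone (0.0205) and array weights (0.0117). Of its 2 features, taken singly after their values were seen, feature 2858 gave 1.47 (adjusted p = 0.00151) and feature 42863 gave 0.69 (adjusted p = 0.432). The heme differences, -0.33 ± 0.42 in wild type and -0.08 ± 0.34 in the knockout, did not pass.

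Ireb2 (IRP2), the sensor protein that is degraded when iron is plentiful, read -0.42, -0.32 and -0.39 with albumin, 0.33, 0.87 and 0.22 with LPS, and 0.00, 0.58 and 0.74 with heme and LPS in wild type. The 0.00 of heme array a is one of the exact zeros. The knockout read 1.37, 0.58, 0.74 and 0.70 with LPS and 0.76, 0.58, 0.17, -0.12 and 0.76 with heme and LPS. All 15 LPS-treated arrays lay above albumin. Ireb2 rose by 0.85 ± 0.27 with LPS (1.81-fold, adjusted p = 0.0296) and was 0.82 ± 0.27 higher with heme and LPS than with albumin (adjusted p = 0.0375). Without any 1 of the 3 albumin arrays both calls were lost (adjusted p of 0.0605 to 0.0751 and 0.0716 to 0.0893). The differences themselves then stayed at 0.83 to 0.88 and 0.80 to 0.85. The first call was also lost without wild-type LPS array b (0.132), and the second without wild-type heme array b (0.105) or c (0.133). The heme differences of -0.03 ± 0.27 in wild type and -0.42 ± 0.22 in the knockout did not pass.

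Whether the heme response depends on Nrf2 was compared in 2 ways, as knockout against wild type in each treatment and as the difference of the heme effects, the interaction. Under LPS none of the 10 genes was called by limma, beside 0.00445% of all genes. At an unadjusted p under 0.05 there were likewise 0 of 10. The arrays of the genotypes did not overlap for 1 of 10, beside 3.02% of all genes. Under heme and LPS, Slc40a1 was called, lower in the knockout by 3.36 ± 0.75 (10.2-fold lower, adjusted p = 0.0158), which makes 1 of 10 beside 5.29% of all genes (3.16% lower). At an unadjusted p under 0.05 in limma there were 5 of 10. The share of all genes at that threshold was not counted, so whether 5 of 10 exceeds it is not known. The arrays of the genotypes overlapped for all 10, against 7.79% of all genes with no overlap. For Slc40a1 wild-type array a (0.56) lay below knockout array b (0.76). The call was lost without wild-type heme array b (-2.76, adjusted p = 0.0937) or c (-3.00, adjusted p = 0.0856), and in a fit on the groups compared alone (adjusted p = 0.177).

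In the interaction none of the 10 genes was called by limma, beside 0.947% of all genes. At an unadjusted p under 0.05 there were 2 of 10. The share of all genes at that threshold was not counted, so whether 2 of 10 exceeds it is not known. For Slc40a1 the heme effect was smaller in the knockout (difference of effects -2.95, 95% interval -5.27 to -0.64, unadjusted p = 0.0161, adjusted p = 0.373). For Spic the difference of effects was -2.02 (95% interval -3.72 to -0.32, adjusted p = 0.453), and its knockout minus wild-type value after heme and LPS was -1.30 ± 0.55 (adjusted p = 0.244). The replicate letters paired the arrays of the 2 genotypes, but not the albumin arrays. With the letter as a block over all arrays, albumin included, the Spic genotype difference under heme was -1.72 and passed (adjusted p = 0.0246). It also passed without wild-type heme array a (-2.08, adjusted p = 0.0214). With the block the interactions remained short of the threshold at -2.22 for Spic (adjusted p = 0.0771) and -2.87 for Slc40a1 (adjusted p = 0.167). Without the 4 LPS-treated arrays lettered a, Spic passed in the genotype difference (-1.77, adjusted p = 0.00510) and in the interaction (-2.30, adjusted p = 0.0273), and Slc40a1 gave -3.99 (adjusted p = 0.000939) and -2.88 (adjusted p = 0.0939).

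For the ferritins, Slc11a1 and Tfrc the interval of the interaction bounds how far the genotypes could differ in their heme response. It ran from -0.24 to 0.51 for Fth1, from -0.47 to 0.20 for Ftl1, from -0.46 to 0.82 for Slc11a1 and from -0.61 to 1.13 for Tfrc. Differences of heme effects within those bounds, no difference among them, were compatible with the values of these arrays. The intervals do not give the smallest difference that could have been detected. Under heme and LPS the knockout minus wild-type values were 0.46 ± 0.21 for Slc11a1, 0.38 ± 0.14 for Steap3 and 0.61 ± 0.28 for Tfrc, with adjusted p of 0.291, 0.161 and 0.303. Without knockout heme array b Slc11a1 passed (0.64, adjusted p = 0.0142), and without knockout heme array a Steap3 did (0.49, adjusted p = 0.0127), as it did with every LPS-treated array of that letter left out (0.48, adjusted p = 0.0390).

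**Figure D4:**
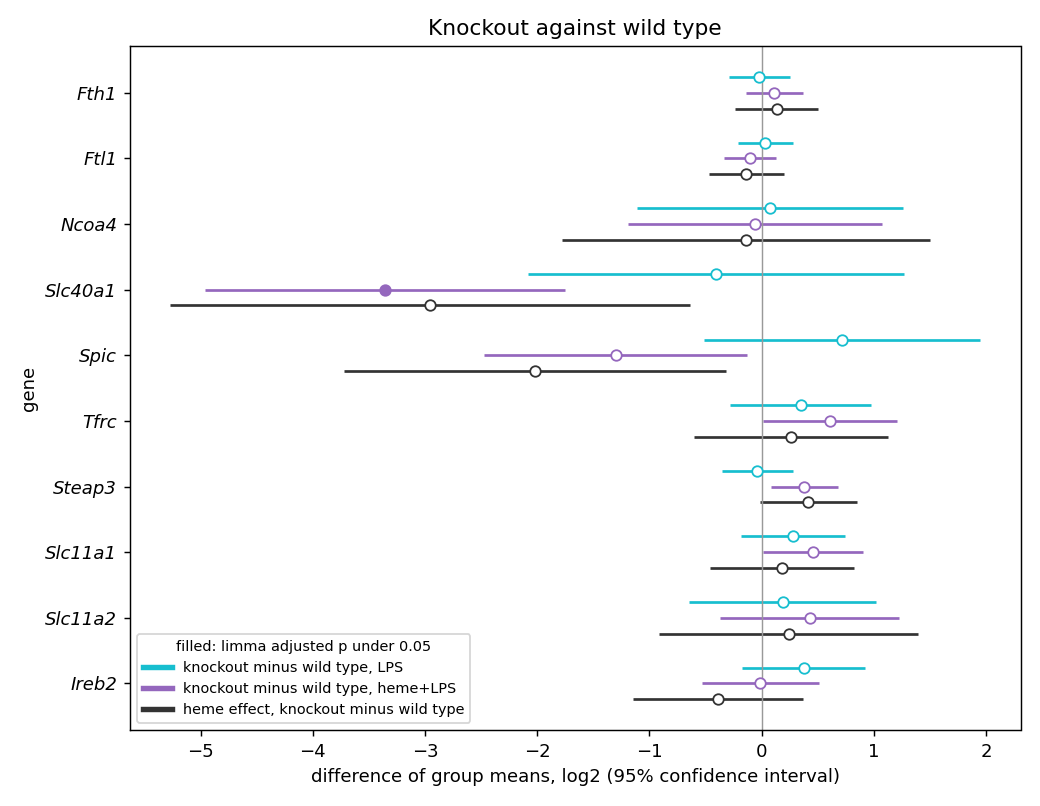
Knockout minus wild type under LPS, under heme and LPS, and as the difference of heme effects (horizontal axis, log2 difference with its 95% confidence interval) for each of the 10 genes; filled points passed limma's adjusted p under 0.05. Only the heme and LPS difference of Slc40a1, -3.36, is filled, and the Slc40a1 and Spic intervals are the only ones of the interaction that leave out 0.

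Among 38 other iron genes in 6 lists, 35 were measured. With heme in wild type 3 of the 35 rose and 3 fell, in the knockout 1 rose and none fell, and with LPS 6 rose and 3 fell. All genes were called in 14.7%, 6.77% and 28.6% of cases in these comparisons, so the shares of the 35 are near or below the background. The medians of the 35 were -0.01, 0.01 and -0.07, beside 0 over all genes. Hmox1, heme oxygenase, rose by 4.91 ± 0.34 with heme in wild type (adjusted p = 6.44e-07) and by 4.01 ± 0.28 in the knockout (adjusted p = 3.4e-06), and it was lower in the knockout under heme and LPS by 1.60 (-1.60 ± 0.31, adjusted p = 0.00588). In that contrast 2 of the 35 were lower, Hmox1 and Nfe2l2 (-0.64, adjusted p = 0.0456), beside 3.16% of all genes. The 2 higher were Cp (1.60, adjusted p = 0.0210) and Slc25a28 (1.16, adjusted p = 0.000462), and 5.29% of all genes were called in either direction. Nfe2l2 is the gene knocked out and read 0 on each knockout array, so its call is no result about iron genes. Nfe2l2 (0.94 ± 0.19, adjusted p = 0.00394) and the mitochondrial iron importer Slc25a37 (1.08 ± 0.32, adjusted p = 0.0336) also rose with heme in wild type. Its relative Slc25a28 (-1.60 ± 0.18, adjusted p = 2.64e-05), the plasma ferroxidase Cp (-1.66 ± 0.42, adjusted p = 0.0136) and the hypoxia factor Epas1 (-0.60 ± 0.15, adjusted p = 0.0105) fell. Slc25a28 was the only 1 of the 35 called in the interaction (1.12 ± 0.23, adjusted p = 0.0323), beside 0.947% of all genes. In the uptake and reduction list, which holds the siderophore carrier Lcn2 and the zinc and iron transporter Slc39a14, 0 of 12 were called with heme by limma in either genotype. Beside them stand 14.7% and 6.77% of all genes in wild type and knockout. Steap4 of that list came nearest in wild type (-3.65 ± 1.24, adjusted p = 0.0677), with an exact 0 on each wild-type heme array.

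The genes whose log2 ratios over the 18 arrays ran closest to 4 more of the iron genes, among 13878 genes, are given as a description; all arrays share the reference, and the treatment groups alone give high values. They were Cebpa (r = 0.97), Ptpre (0.96) and Abhd4 (0.95) for Slc40a1, and Ralgapa2 (0.95), Bcl2l2 (0.94) and Wipi2 (0.94) for Spic. For Tfrc they were Oip5 (0.95), Sfxn2 (0.94) and Cenpe (0.93), and for Slc11a1 Slc39a4 (0.97), Me1 (0.95) and Ube4b (0.95). After group means were removed, r was 0.90 for Cebpa with Slc40a1, 0.66 for Ralgapa2 with Spic, 0.71 for Oip5 with Tfrc and 0.81 for Slc39a4 with Slc11a1.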

How the data were processed

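The deposited values are taken as log10 ratios of Cy5 over Cy3 from Agilent Feature Extraction 10.5.1.1, per the submitters' processing notes; the authors' log base is not stated, and base 10 is inferred because that program writes its log ratio so. Every log2 value rests on that inference; p-values do not. Background and dye correction are likewise not stated. Of 44397 features, 33026 had 1 gene symbol and 11371 none. Values were converted to log2 and averaged over the features of a gene. Array medians were 0, so centring changed nothing. Group means were fitted with limma 3.58.1 in R 4.3.3 (lmFit, eBayes, two-sided, all 18 arrays), tested on simulated data. Each gene had 1 spread shared by all groups, although albumin arrays varied least for every iron gene but Steap3. Standard errors, intervals and p-values between more variable groups can therefore be too small. Figures used Python 3.11.15 with pandas 2.3.3 and matplotlib 3.10.9.

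Named were all 10 genes, up to 4 called genes per list of other iron genes under heme, the 3 closest genes for at most 5 members (leaving out genes at exactly 0 on more than 4 arrays), and Nfe2l2. Lcn2, Slc39a14 and Steap4, none of them called under heme, are named as well. Genes and lists were chosen with earlier results of these data known. Marker lists covered macrophages, erythroid cells, neutrophils and dividing cells. Letters in the sample titles paired arrays of the 2 genotypes by their deviations from group means: r was 0.23 to 0.53 between heme groups and 0.20 to 0.58 between LPS groups. Between knockout groups r was 0.22 to 0.59, but knockout heme arrays b and c ran closer to a knockout LPS array of another letter. It was 0.01 to 0.48 between wild-type heme and LPS arrays (0.48 for letter a, 0.01 for b and c). For albumin it was -0.02 to 0.02, so the letters did not pair the albumin arrays. The replicate block still used the letter of every array, albumin arrays included. Alternatives were quantile normalization, centring, exact zeros as missing or filtered, the median over features, array weights, the groups compared alone, the letter as a replicate block, no LPS-treated arrays lettered a, and each array left out in turn.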

Additional observations from a re-analysis of the deposited data

How the results depend on the processing

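Of 27 called differences, 17 stayed called under every alternative, 10 lost the call under some and none changed sign; of 43 differences not called, 15 changed sign under some. The count of called genes for knockout minus wild type under heme was 1, and it was 2 with the replicate block, 0 on the groups compared alone, 3 with array weights and 3 with the arrays lettered a left out of the LPS-treated groups; the count for the interaction was 0, and 1 with array weights and 1 without those arrays. Leaving out 1 array at a time, the counts ran from 2 to 5 for LPS against albumin (main 5), 6 to 7 and 5 to 6 for heme in wild type and knockout, 6 to 8 for heme and LPS against albumin, and 0 to 2 for knockout minus wild type under heme, with 0 throughout for the interaction and under LPS. For albumin comparisons the letters did not pair the arrays; there the block put Ncoa4 (adjusted p = 0.0199 for LPS, 0.0214 for heme and LPS) and Slc11a2 (0.0203 for LPS) past the threshold. Outside the albumin comparisons the block changed no call other than that of Spic in knockout minus wild type under heme.

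The sign changes were all among small differences that were not called, and the cause was not tested. Knockout minus wild type under LPS turned to -0.0065 (block), -0.048 (weights) and -0.078 (no arrays a) for Ftl1, -0.019 (block) and -0.10 (weights) for Slc11a2, -0.029 (weights) and -0.31 (no arrays a) for Ncoa4, and 0.014 (no arrays a) and 0.13 (feature 30602 alone) for Steap3. The same contrast under heme turned to 0.025 (quantile) and 0.011 (block) for Ireb2 and 0.037 (block) for Ncoa4. The heme difference turned to 0.19 (zeros missing), 0.0037 (weights) and 0.12 (no arrays a) for Ireb2 in wild type and 0.17 (weights) for Slc11a2 in the knockout. LPS against albumin turned to -0.091 (median over features) and -0.095 (10 features) for Tfrc.

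With 1 array left out at a time, heme differences in wild type ran from -0.18 to 0.19 for Ireb2 and -0.50 to 0.81 for Ncoa4, and in the knockout from -0.32 to 0.075 for Ncoa4 and -0.39 to 0.19 for Slc11a2. The interaction ran from -0.94 to 0.37 for Ncoa4 and -0.069 to 0.53 for Slc11a2, and LPS against albumin from -0.045 to 0.18 for Tfrc. Knockout minus wild type ran from -0.23 to 0.14 for Ireb2 and -0.86 to 0.44 for Ncoa4 under heme. Under LPS it ran from -0.13 to 0.066 for Fth1, -0.062 to 0.12 for Ftl1, -0.43 to 0.42 for Ncoa4, -0.089 to 0.50 for Slc11a2, -1.22 to 0.012 for Slc40a1 and -0.088 to 0.027 for Steap3. Feature signals over background were not used here, so dim features cannot be told from bright ones.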
